A study of Arabidopsis thaliana with 6 samples.

Results

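The circadian clock and photoperiod genes described here are 35 Arabidopsis thaliana genes chosen by name. They are the MYB genes CCA1 and LHY, the REVEILLE (RVE) and LNK genes, the pseudo-response regulators (PRR), CHE, the evening complex, GI with the ZTL family, GRP7 and GRP8, the CDF genes, CO and FT. All 35 were found among the 33602 gene models of the deposited tables, and all 35 passed the filter on low counts that left 21344 genes for testing.

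The RNA came from whole seedlings carrying 35S::CUC2-GR, at Boyes stage 1.02, raised in long days at 21 °C on growth medium in vitro. The 3 Dex libraries were made from plantlets in 10 mL of liquid medium that received 10 µL of dexamethasone for 6 h. The 3 no_Dex libraries have the same genotype and are labelled as untreated. The transgene places a fusion of CUC2, a NAC transcription factor of organ boundaries, with the steroid-binding part of the glucocorticoid receptor under a viral promoter active in most tissues. Every library carries it, so a response to dexamethasone itself and a response to activated CUC2-GR cannot be told apart here. No mock treatment is stated for the no_Dex plantlets in the sources used here. Effects of handling or of the liquid medium therefore cannot be told apart from the treatment. The clock time of harvest is not given in the sources used here, so a difference in time of day between the groups and the treatment cannot be told apart either.

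Between 26161582 and 29481253 read pairs were counted per library, and the members took 0.487% to 0.637% of them. Log2 CPM (counts per 1000000 pairs) of the no_Dex libraries correlated across genes at 0.996 to 0.997. Dex replicate 1 stood apart from the other Dex libraries, at 0.990 and 0.991, while Dex replicates 2 and 3 correlated at 0.997. CUC2, summed over transgene and endogenous gene, had 863 ± 9.27 CPM in Dex and 853 ± 32.4 CPM in no_Dex (SD, n = 3 each). All 10 green-tissue and all 10 root marker genes were detected in every library. The green-tissue markers summed to 8703 to 13718 CPM in Dex and 15806 to 17792 CPM in no_Dex. Of these 10 genes 3 were called lower (CAB1, CAB2 and LHCB3, light-harvesting genes that are themselves clock outputs), against 8.40% of all tested genes. RBCS1A and RBCS1B had log2 fold changes of -0.009 and -0.012, and the other green-tissue markers lay between -1.37 and -0.31. The root markers summed to 278 to 285 CPM in Dex and 287 to 326 CPM in no_Dex. Of the 10 root markers 1 was called lower, near the share over all tested genes. NRT2:1, IRT1 and EIR1 had positive log2 fold changes (0.13, 0.03 and 0.09), and the other root markers lay between -0.68 and -0.01. The part of these marker differences in the changes below was not tested, and in whole seedlings fewer cells of a type and less RNA per cell cannot be told apart.

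As background, the plant clock is a loop of repressors that follow each other through the day. CCA1 and LHY accumulate around dawn and repress genes of the evening. PRR9, PRR7, PRR5 and TOC1 follow in turn and repress CCA1 and LHY. The evening complex of ELF3, ELF4 and LUX closes the loop at dusk by repressing PRR9 and other day genes. RVE8 and its relatives, with LNK partners, activate evening genes. In the photoperiod branch, GI and FKF1 remove the CDF repressors late in long days, which lets CO activate FT, the mobile flowering signal. From such textbook knowledge 17 members were grouped as morning-phased, 2 as midday-phased (PRR7 and PRR5) and 13 as evening-phased. The groups were chosen with earlier results of these data known. Counts per phase group below therefore describe these genes and are no independent test of a phase pattern. For ZTL, LKP2 and EFL1 no phase was assigned.

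Regulators of the clock meet these genes at short DNA motifs, and the stretches below hold a selection of the matches upstream of a selection of members. Further matches in the same genes and in other members are not printed. They are shown 5′ to 3′ on the strand of the gene, from RefSeq's TAIR10.1 genome, and all lie before the annotated gene start and outside other annotated genes. Capitals mark the G-box and the TCP site in CCA1, the G-boxes and a LUX site in PRR9, the G-boxes in LNK3, and evening elements in the other genes.
CCA1: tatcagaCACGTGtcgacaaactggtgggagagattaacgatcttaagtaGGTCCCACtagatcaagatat
PRR9: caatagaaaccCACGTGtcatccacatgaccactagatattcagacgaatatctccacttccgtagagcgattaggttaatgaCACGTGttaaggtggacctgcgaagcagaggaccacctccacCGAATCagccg
LNK3: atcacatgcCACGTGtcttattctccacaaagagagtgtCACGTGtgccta
RVE7: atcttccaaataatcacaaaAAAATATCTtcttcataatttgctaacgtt
TOC1: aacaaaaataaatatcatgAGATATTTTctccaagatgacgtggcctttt
FKF1: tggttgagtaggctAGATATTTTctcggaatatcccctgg
GRP7: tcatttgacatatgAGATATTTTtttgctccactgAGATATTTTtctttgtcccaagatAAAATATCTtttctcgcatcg
GRP8: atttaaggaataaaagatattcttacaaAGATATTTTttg

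The CCA1 stretch is chr2:19245391-19245461 on the plus strand and the PRR9 stretch chr2:19232352-19232487 on the plus strand. The LNK3 stretch is chr3:3923335-3923385 on the plus strand. The RVE7 stretch is chr1:6308264-6308313 on the minus strand. The TOC1 stretch is chr5:24674793-24674842 and the FKF1 stretch chr1:25508439-25508478, both on the plus strand. The GRP7 stretch is chr2:9266568-9266647 and the GRP8 stretch chr4:18275217-18275256, both on the minus strand.

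Motifs were searched on both strands in the 500 bases before the annotated start of 27443 protein-coding genes. The evening element AAAATATCT, bound by CCA1, LHY and RVE proteins, was found before 6 of 13 evening-phased members, 1 of 2 midday-phased and 1 of 17 morning-phased members, and before 4.44% of all genes. The evening-phased holders were TOC1, LUX, BOA, FKF1, GRP7 and GRP8, the midday one PRR5 and the morning one RVE7. The G-box CACGTG, which reads the same on both strands and is bound by bHLH and bZIP proteins, was found before 7 of 17 morning-phased and 2 of 13 evening-phased members, and before 9.35% of all genes. The CCA1-binding site AAAAATCT was found before 5 of 17 morning-phased and 0 of 13 evening-phased members, against 12.5% of all genes. The TCP site GGNCCCAC, bound by CHE, was found before CCA1 alone among the members, and before 1.54% of all genes. LUX sites took the form GATACG in 5 members, against 8.76% of all genes, and GATTCG in 8 members, against 15.4%. These matches describe the sequence only, and no binding was measured.

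**Figure D1:**
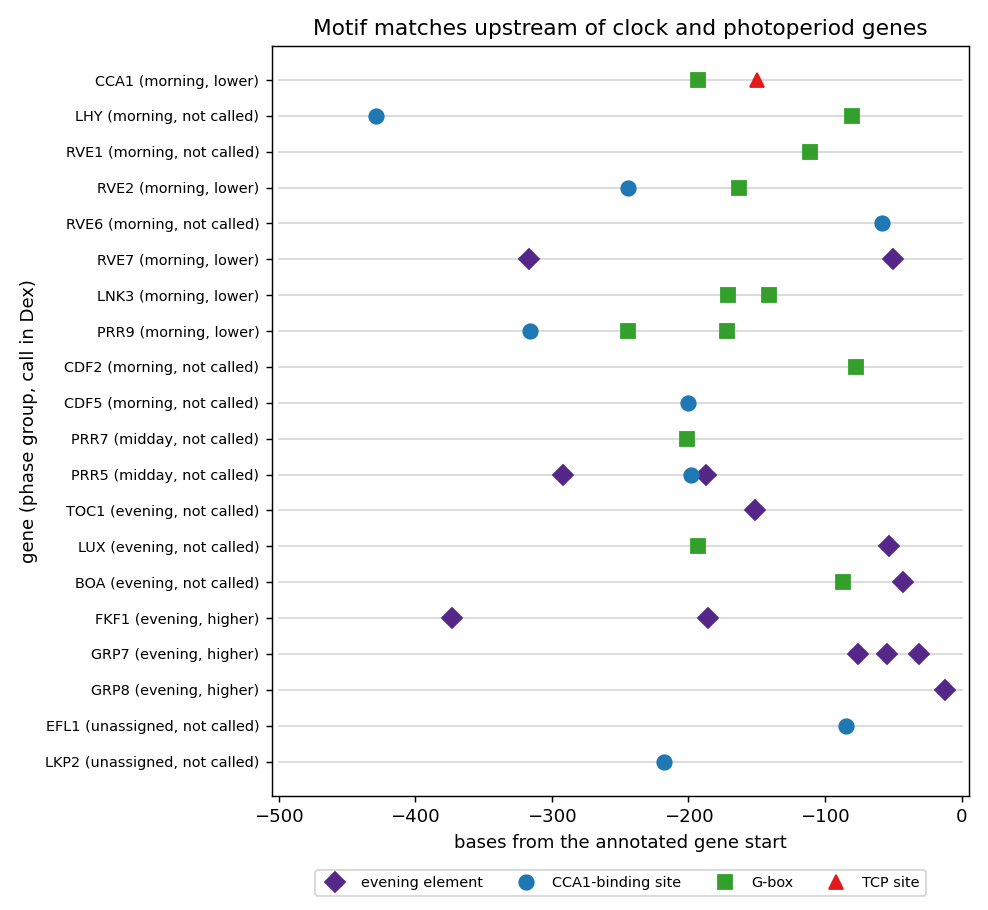
Matches to 4 motifs in the 500 bases upstream of the members that hold at least 1 of them; the horizontal axis is the distance in bases from the annotated gene start and each symbol is the first base of a match. Evening elements stand mostly before evening-phased genes, with 3 before GRP7, and G-boxes before 7 of 17 morning-phased genes.

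The comparison of Dex with no_Dex asked how transcript levels differ after the treatment. Of the 17 morning-phased genes 16 had a negative log2 fold change, and 9 of the 13 evening-phased genes had a positive one, mostly small. Over all 21344 tested genes 10305 were negative and 11039 positive. By edgeR's quasi-likelihood test, adjusted over all tested genes, 10 of the 35 members fell, 3 rose and 22 did not pass. Over all tested genes 8.40% were called lower and 5.99% higher, 14.4% in all. Of the 17 morning-phased members 9 fell and none rose, with a median log2 fold change of -0.51. Among them 13 had an unadjusted p under 0.05 on the lower side and 0 on the higher side, and DESeq2 and limma-voom each called 8 lower and 0 higher. Over all 21344 tested genes, edgeR's unadjusted p was under 0.05 for 3407 on the lower side and 3017 on the higher side. There DESeq2 called 1850 lower and 1208 higher, and limma-voom 1813 lower and 1255 higher. Of the 13 evening-phased members 3 rose, 1 fell and 9 did not pass, with a median of 0.09. The median of all tested genes was 0.01.

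The separation of the libraries followed the same division. In 13 of the 17 morning-phased members all 3 Dex values lay below all 3 no_Dex values, and in 1 they lay above; over all tested genes 18.3% had Dex below and 18.1% had Dex above, 36.3% in all. Averaged over the 17 genes, log2 CPM deviated from each gene's mean over 6 libraries by -0.27, -0.27 and -0.20 in Dex replicates 1 to 3, against 0.28, 0.21 and 0.25 in no_Dex replicates 1 to 3. For the 13 evening-phased members the same averages were 0.07, -0.03 and -0.01 in Dex and 0.00, 0.02 and -0.05 in no_Dex. All 3 Dex libraries were thus on the low side for the morning-phased genes, Dex replicate 1 included, while the evening averages of the groups overlapped. Gene by gene, 6 of the 13 evening-phased members had every Dex value above every no_Dex value, 2 had them below, and 5 overlapped. Without Dex replicate 1, 10 morning-phased members were called lower and 0 higher. Calls over all tested genes also rose in that setting, from 1792 to 2726 lower and from 1279 to 2339 higher.

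**Figure D2:**
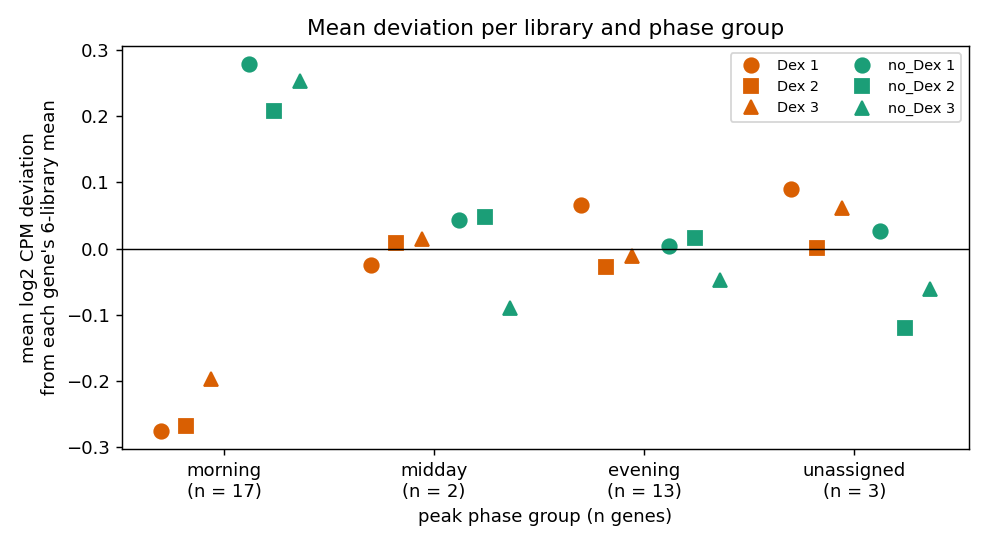
Mean deviation of log2 CPM from each gene's 6-library mean (vertical axis) for the 4 phase groups (horizontal axis), with Dex libraries in orange and no_Dex libraries in green. The morning-phased mean lies between -0.27 and -0.20 in Dex and between 0.21 and 0.28 in no_Dex, and the other groups lie within 0.12 of 0.

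**Figure D3:**
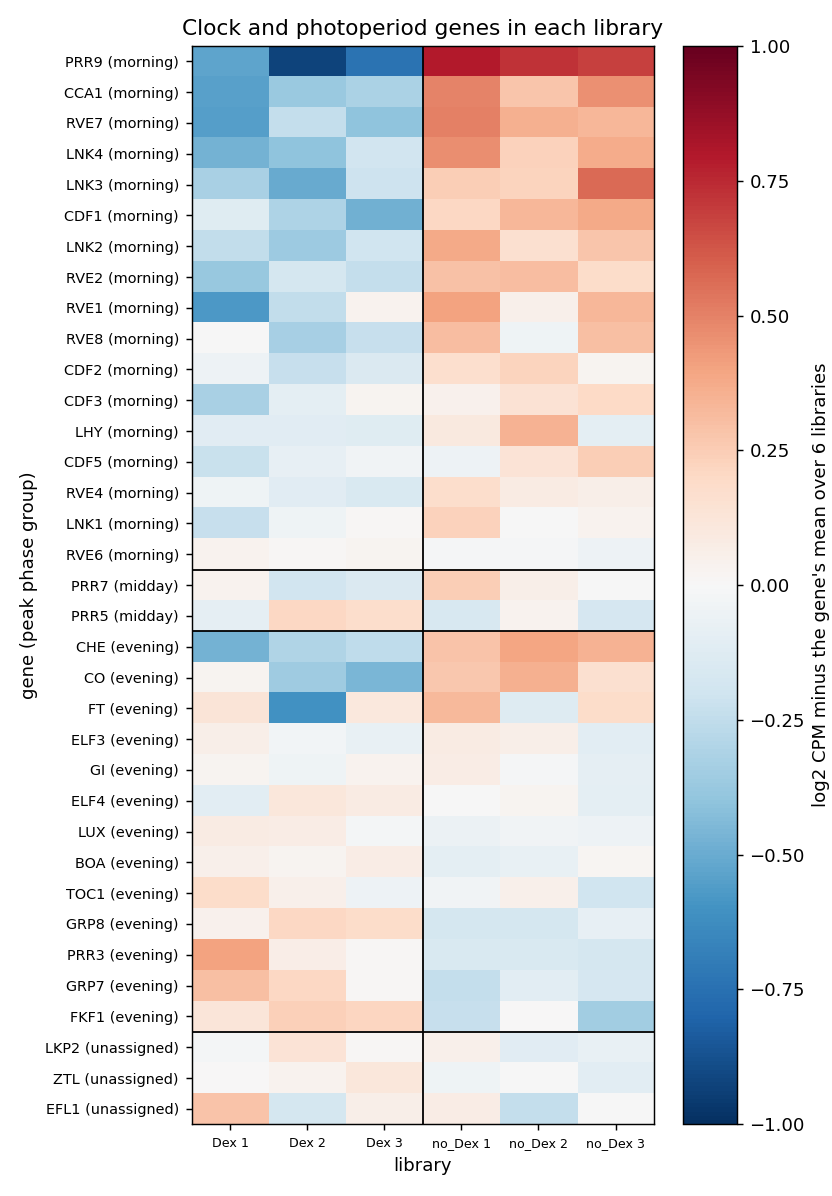
Log2 CPM of each of the 35 members minus that gene's mean over 6 libraries (colour), with the 3 Dex libraries left of the 3 no_Dex libraries and genes grouped by phase. PRR9 shows the strongest contrast, and CHE, an evening-phased gene, is lower in all 3 Dex libraries.

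CCA1 (AT2G46830, chromosome 2, 19245591 to 19248915, plus strand), the dawn repressor at the centre of the loop, fell. Its level was 2.34, 2.63 and 2.74 CPM in Dex and 4.79, 4.13 and 4.67 CPM in no_Dex, so the groups did not overlap. It fell by 0.82 in log2 terms (SE 0.13, n = 3 per group; edgeR adjusted p = 0.00584), to 56.7% of the no_Dex level. LHY (AT1G01060), its close relative with an overlapping function, was the scarcer of the pair. LHY had 1.19, 1.18 and 1.18 CPM in Dex and 1.37, 1.63 and 1.19 CPM in no_Dex, resting on 31 to 46 pairs per library. All 3 Dex values were below the no_Dex values by a small margin, and LHY did not pass the test (edgeR adjusted p = 0.434; log2 fold change -0.24, SE 0.19).

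The other MYB genes of the family, the REVEILLE genes, differed among themselves. RVE7 (AT1G18330, chromosome 1, 6305814 to 6308243, minus strand), an output of the clock also known as EPR1, had 21.6, 26.9 and 24.0 CPM in Dex and 44.9, 40.6 and 40.0 CPM in no_Dex. It fell by 0.79 (SE 0.09; edgeR adjusted p = 0.00125). RVE2 (AT5G37260, chromosome 5, 14751344 to 14753088, minus strand), also known as CIR1, had 8.26, 9.50 and 9.12 CPM in Dex and 13.2, 13.3 and 12.2 CPM in no_Dex, and fell by 0.53 (SE 0.09; edgeR adjusted p = 0.00615). Both genes kept their groups well apart. RVE1 (AT5G17300), which links the clock to auxin synthesis and growth, had 2.78 to 4.24 CPM in Dex and 4.28 to 5.44 CPM in no_Dex, and its log2 fold change of -0.51 did not pass (SE 0.18; edgeR adjusted p = 0.0906). RVE1 shares 225 bases of its span with a gene on the opposite strand.

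The 3 REVEILLE genes that activate evening genes, RVE4, RVE6 and RVE8, had smaller log2 fold changes than RVE1, RVE2 and RVE7. Whether the 2 sets differ was not tested. RVE4 (AT5G02840, chromosome 5, 648648 to 651979, plus strand) had 38.6, 36.8 and 35.8 CPM in Dex and 44.9, 42.1 and 41.4 CPM in no_Dex. Its fall of 0.21 (SE 0.06; edgeR adjusted p = 0.0494) was at the edge of the threshold. The call was lost without any 1 of Dex replicates 2 or 3 or no_Dex replicates 1, 2 or 3 (edgeR adjusted p = 0.136, 0.136, 0.144, 0.120 and 0.0913), by limma-voom (0.0516), by DESeq2 (0.0770) and without the filter on low counts (0.0614). RVE8 (AT3G09600) had a log2 fold change of -0.37 (SE 0.16) at 2.29 to 2.88 CPM in Dex and 2.79 to 3.56 CPM in no_Dex, and overlapped between the groups. RVE6 (AT5G52660) was the single morning-phased gene with a positive log2 fold change, 0.05 (SE 0.07), at 10.5 to 10.7 CPM in Dex and 10.0 to 10.3 CPM in no_Dex. Neither RVE6 nor RVE8 passed the test (edgeR adjusted p = 0.669 and 0.159).

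The LNK genes, which encode partners of the RVE activators, showed 3 of 4 members lower, against 8.40% of all tested genes. LNK4 (AT5G06980, chromosome 5, 2167120 to 2169437, plus strand) had 17.7, 18.7 and 21.6 CPM in Dex and 34.0, 28.9 and 31.9 CPM in no_Dex, and fell by 0.71 (SE 0.09; edgeR adjusted p = 0.00254). LNK3 (AT3G12320, chromosome 3, 3923515 to 3925502, plus strand), which carries the pair of G-boxes shown above, had 5.59, 4.92 and 6.05 CPM in Dex and 8.32, 8.16 and 10.3 CPM in no_Dex, and fell by 0.69 (SE 0.13; edgeR adjusted p = 0.0112). LNK2 (AT3G54500, chromosome 3, 20175370 to 20179070, minus strand) had 28.9, 26.6 and 29.8 CPM in Dex and 44.4, 38.2 and 41.4 CPM in no_Dex, and fell by 0.54 (SE 0.07; edgeR adjusted p = 0.00299). In all 3 genes every Dex library was below every no_Dex library. LNK1 (AT5G64170), the relative closest to LNK2 in function, had 36.0, 40.9 and 42.6 CPM in Dex and 49.5, 42.1 and 43.3 CPM in no_Dex. Its groups overlapped and it did not pass the test (edgeR adjusted p = 0.212; log2 fold change -0.17, SE 0.09).

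The pseudo-response regulators, which repress CCA1 and LHY one after the other through the day, had 1 of 5 members lower and 4 that did not pass. Over all tested genes 8.40% were called lower. PRR9 (AT2G46790, chromosome 2, 19232607 to 19235179, plus strand), the morning member, had 2.47, 1.87 and 2.14 CPM in Dex and 6.16, 5.87 and 5.72 CPM in no_Dex. It fell by 1.45 (SE 0.13; edgeR adjusted p = 0.000655) to 36.7% of the no_Dex level, further than any other of the 35 members. PRR7 (AT5G02810), the next in the day, had 125, 107 and 110 CPM in Dex and 144, 127 and 121 CPM in no_Dex, which gave a log2 fold change of -0.20 (edgeR adjusted p = 0.170, SE 0.09). PRR5 (AT5G24470), which follows in the afternoon, had 58.1, 71.2 and 69.7 CPM in Dex and 55.4, 63.4 and 54.8 CPM in no_Dex, which gave 0.20 (edgeR adjusted p = 0.194, SE 0.09). Both overlapped between the groups and neither passed the test. Without Dex replicate 1, PRR7 was called lower (-0.27; edgeR adjusted p = 0.0247) and PRR5 higher (0.28; edgeR adjusted p = 0.0132), and with the replicate block PRR7 was called lower (edgeR adjusted p = 0.0421).

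PRR3 (AT5G60100), whose protein protects TOC1 from degradation, had 41.1, 32.6 and 31.4 CPM in Dex and 28.1, 28.1 and 27.5 CPM in no_Dex. All Dex values were higher, Dex replicate 1 by the most, but the gene did not pass the test (edgeR adjusted p = 0.0634; log2 fold change 0.33, SE 0.10). PRR3 was called higher with the replicate block (edgeR adjusted p = 0.0384), by DESeq2 (0.0431), without Dex replicate 1 (0.20; edgeR adjusted p = 0.0316) and without Dex replicate 3 (0.40; edgeR adjusted p = 0.0461). TOC1 (AT5G61380), the dusk repressor opposite CCA1, had 126, 115 and 107 CPM in Dex and 108, 115 and 96.7 CPM in no_Dex. Its groups overlapped and it did not pass (edgeR adjusted p = 0.389; log2 fold change 0.12, SE 0.09). Per length (FPKM, pairs per 1000 bases and 1000000 pairs), TOC1 exceeded CCA1 by 45.2, 36.5 and 32.7 times in Dex and 19.0, 23.3 and 17.4 times in no_Dex. In every library the evening gene of this pair was therefore the more abundant, and the ratio was higher in each Dex library than in each no_Dex library. The ratio contains the CCA1 levels given above, so it is not a separate result.

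CHE (AT5G08330, chromosome 5, 2680401 to 2681993, plus strand), a TCP factor that represses CCA1 through the TCP site shown above, fell. It had 35.3, 39.7 and 41.0 CPM in Dex and 59.5, 64.5 and 62.4 CPM in no_Dex. CHE fell by 0.68 (SE 0.07; edgeR adjusted p = 0.000902) to 62.2% of the no_Dex level. It was the single evening-phased member called lower, so CHE and its target CCA1 were lower in the same 3 libraries.

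**Figure D4:**
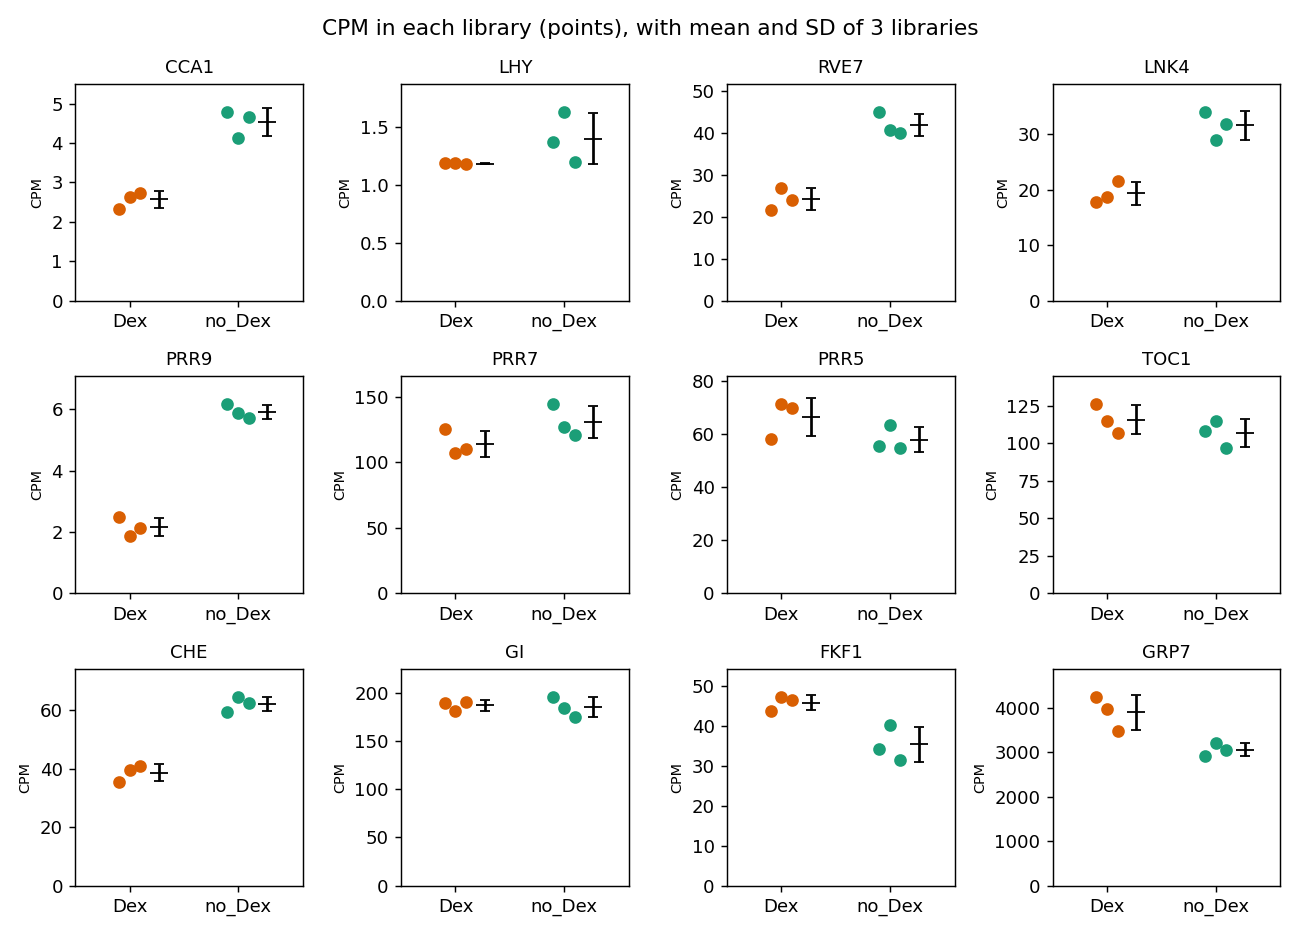
CPM of 12 members in each library (points), with the mean and SD of 3 libraries beside them (bars); every vertical axis starts at 0. The Dex points of CCA1, RVE7, LNK4, PRR9 and CHE all lie below the no_Dex points, as do those of LHY by a small margin. The Dex points of FKF1 and GRP7 lie above, and those of PRR7, PRR5, TOC1 and GI overlap.

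None of the 5 genes of the evening complex and its relatives passed edgeR's test, and 0 had an unadjusted p under 0.05 or were called by DESeq2 or limma-voom. With 14.4% of all tested genes called by edgeR, 0 of 5 sets these genes little apart from other genes. ELF3 (AT2G25930), the scaffold of the complex, had 69.0, 65.0 and 62.8 CPM in Dex and 69.9, 68.7 and 61.4 CPM in no_Dex (edgeR adjusted p = 0.852; log2 fold change -0.02, SE 0.07). ELF4 (AT2G40080), which holds ELF3 in the nucleus, had 40.3, 46.9 and 45.9 CPM in Dex and 43.4, 44.2 and 40.6 CPM in no_Dex (0.05, SE 0.07; edgeR adjusted p = 0.655). Both genes overlapped between the groups. LUX (AT3G46640), the DNA-binding subunit, had 95.1, 94.3 and 88.6 CPM in Dex and 86.3, 87.4 and 86.7 CPM in no_Dex (0.09, SE 0.05; edgeR adjusted p = 0.263), so its Dex values were slightly higher throughout. BOA (AT5G59570), a relative of LUX, had a log2 fold change of 0.10 (SE 0.08), and EFL1 (AT2G29950), a relative of ELF4 with 31 to 48 pairs per library, one of 0.12 (SE 0.20). EFL1 shares 828 bases of its span with AT2G29960 on the opposite strand. That gene had 87.7 ± 2.11 CPM in Dex and 81.4 ± 3.78 CPM in no_Dex (SD, n = 3 each), and its part in the EFL1 counts was not tested. LUX and BOA share 1507 and 1896 bases with genes on the opposite strand.

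GI (AT1G22770), a large protein that stabilises ZTL and works with FKF1, had 189, 181 and 191 CPM in Dex and 196, 185 and 175 CPM in no_Dex. The groups overlapped, and the log2 fold change was 0.01 (edgeR adjusted p = 0.914; SE 0.06). FKF1 (AT1G68050, chromosome 1, 25508639 to 25510907, plus strand), the blue-light F-box protein that removes CDF repressors, had 43.6, 47.2 and 46.5 CPM in Dex and 34.2, 40.3 and 31.5 CPM in no_Dex. FKF1 rose by 0.37 (SE 0.09; edgeR adjusted p = 0.0290), a call lost without Dex replicates 2 or 3 or no_Dex replicates 1 or 3 (edgeR adjusted p = 0.0909, 0.0772, 0.105 and 0.0948). ZTL (AT5G57360), which marks TOC1 and PRR5 for degradation, had 38.2, 39.2 and 41.3 CPM in Dex and 37.0, 38.0 and 35.4 CPM in no_Dex, and did not pass (0.11, SE 0.06; edgeR adjusted p = 0.254). LKP2 (AT2G18915), the third of this F-box family, did not pass either (0.09, SE 0.07; edgeR adjusted p = 0.479).

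GRP7 and GRP8 encode glycine-rich RNA-binding proteins that peak late in the day and regulate the splicing of each other's transcripts. They were by far the most abundant members. GRP7 (AT2G21660, chromosome 2, 9265084 to 9266557, minus strand) alone took 0.345% to 0.431% of the pairs in Dex libraries and 0.288% to 0.317% in no_Dex libraries. It had 4238, 3972 and 3465 CPM in Dex and 2910, 3192 and 3057 CPM in no_Dex, and rose by 0.35 (SE 0.09; edgeR adjusted p = 0.0426). GRP8 (AT4G39260, chromosome 4, 18273829 to 18275216, minus strand) had 908, 1017 and 998 CPM in Dex and 781, 778 and 832 CPM in no_Dex, and rose by 0.29 (SE 0.07; edgeR adjusted p = 0.0307). For both genes the groups did not overlap. The GRP7 call was lost without Dex replicate 2 or no_Dex replicates 1, 2 or 3 (edgeR adjusted p = 0.123, 0.127, 0.105 and 0.133). It was also lost when 1 CPM was required in every library (0.0541). The GRP8 call was lost without Dex replicates 2 or 3 or no_Dex replicates 1, 2 or 3 (edgeR adjusted p = 0.107, 0.0992, 0.0998, 0.130 and 0.0745). GRP7 and GRP8 are related genes, and the authors removed reads with equal hits; how many pairs either gene lost in this way was not tested. Together with FKF1 these were the 3 members that rose. All 3 carry the evening element, as do RVE7, which fell, and TOC1, LUX, BOA and PRR5, which did not pass. The count of members called higher was 0 without Dex replicate 2, no_Dex replicate 1 or no_Dex replicate 3, 1 without no_Dex replicate 2, and 5 without Dex replicate 1.

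**Figure D5:**
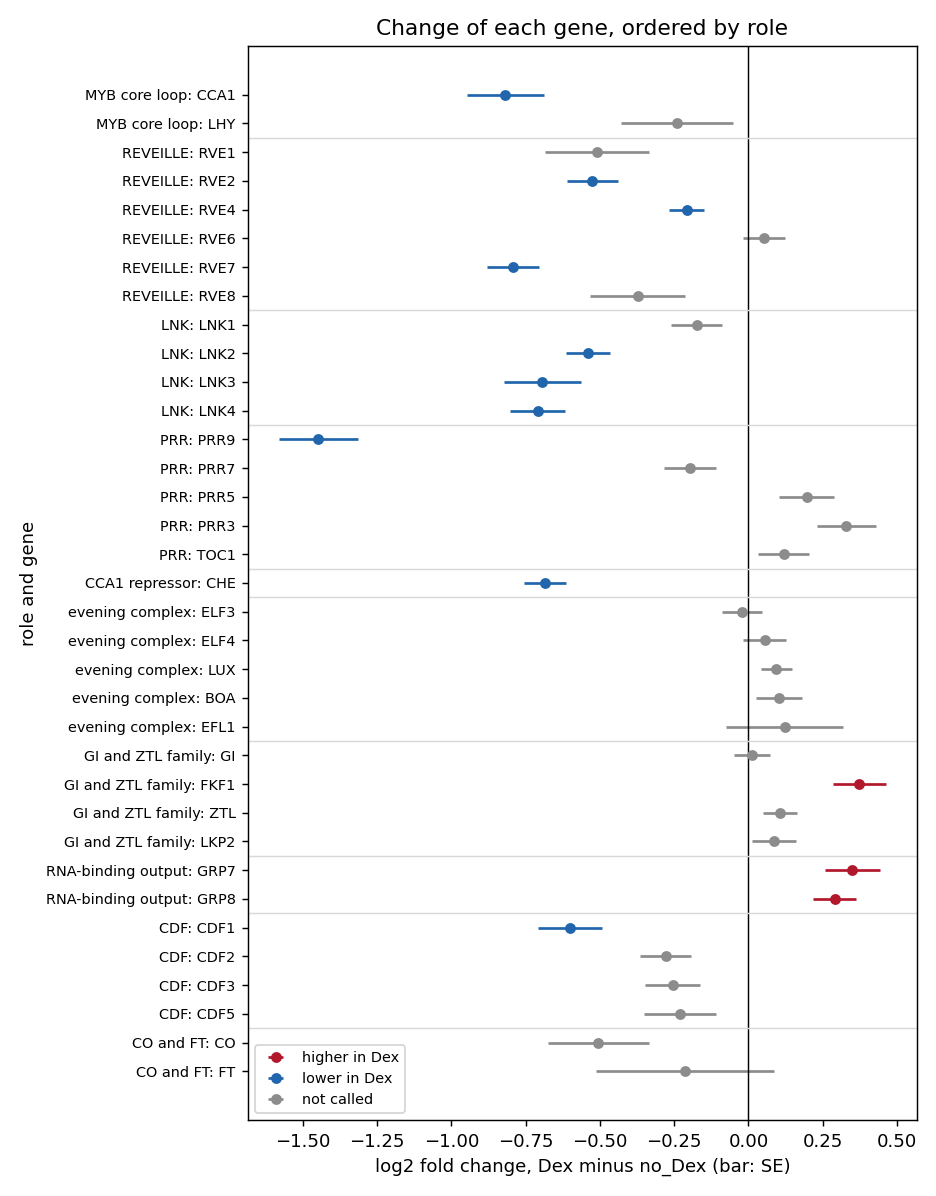
Log2 fold change, Dex minus no_Dex, of each member with its SE (bars), ordered by role; blue points were called lower, red points higher and grey points did not pass the edgeR test. The blue points are CCA1, RVE2, RVE4, RVE7, LNK2, LNK3, LNK4, PRR9, CHE and CDF1, between -1.45 and -0.21, and the red points are FKF1, GRP7 and GRP8.

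The CDF genes encode DOF repressors of CO and FT that accumulate in the morning. CDF1 (AT5G62430, chromosome 5, 25069093 to 25071111, minus strand) had 8.67, 7.63 and 6.77 CPM in Dex and 10.9, 11.9 and 12.3 CPM in no_Dex, and fell by 0.60 (SE 0.11; edgeR adjusted p = 0.00947). CDF2 (AT5G39660), CDF3 (AT3G47500) and CDF5 (AT1G69570) had log2 fold changes of -0.28, -0.25 and -0.23 and did not pass (edgeR adjusted p = 0.0695, 0.106 and 0.247). In CDF2 and CDF3 all Dex values were below the no_Dex values, and in CDF5 they overlapped. CDF3 was called lower with the replicate block (edgeR adjusted p = 0.0304) and CDF2 without Dex replicate 1 (-0.32; edgeR adjusted p = 0.0300). CDF5 shares 1241 bases of its span with the noncoding RNA gene AT1G69572 on the opposite strand, which had 0.384 ± 0.250 CPM in Dex and 0.524 ± 0.124 CPM in no_Dex (SD, n = 3 each).

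CO and FT, the outputs of the photoperiod branch, were scarce in these young seedlings. CO (AT5G15840), a B-box activator of flowering, had 2.34, 1.79 and 1.67 CPM in Dex and 2.77, 2.93 and 2.56 CPM in no_Dex. All Dex values were lower, but CO did not pass (edgeR adjusted p = 0.0855; log2 fold change -0.51, SE 0.17); it was called lower without Dex replicate 1 (-0.67; edgeR adjusted p = 0.0197). CO shares 1967 bases of its span with a gene annotated on the opposite strand. FT (AT1G65480) rested on 15, 8 and 14 pairs in Dex and 17, 12 and 15 pairs in no_Dex, and a difference was not detectable at this depth (-0.21, SE 0.30; edgeR adjusted p = 0.688).

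Levels per length placed the members in an order that was nearly the same in both groups. GRP7 averaged 4655 FPKM in Dex and 3652 FPKM in no_Dex, and GRP8 1085 FPKM in Dex and 888 FPKM in no_Dex. The next in Dex were ELF4 at 71.7, LUX at 67.1, GI at 45.2, TOC1 at 42.8 and PRR7 at 40.3 FPKM. In no_Dex ELF4 stood at 69.1, LUX at 62.8, CHE at 58.1, PRR7 at 46.2, GI at 44.8 and TOC1 at 39.4 FPKM. GI, TOC1 and PRR7 had SDs of 1.27, 3.54 and 3.42 FPKM in Dex and 2.49, 3.47 and 4.25 FPKM in no_Dex (n = 3 each), so neighbours among these 3 genes differed by less than their summed SDs in both groups. ELF4 and LUX had SDs of 5.75 and 2.55 FPKM in Dex and 3.13 and 0.402 FPKM in no_Dex, which left them apart in no_Dex but not in Dex. CHE, above PRR7 in no_Dex, stood below it in Dex, at 36.1 FPKM. The lowest were LHY at 0.437 FPKM in Dex and 0.516 FPKM in no_Dex, and FT at 0.511 FPKM in Dex and 0.597 FPKM in no_Dex. CCA1 was at 1.13 FPKM in Dex and 2.0 FPKM in no_Dex, and PRR9 at 1.19 FPKM in Dex and 3.25 FPKM in no_Dex, so CCA1, LHY and PRR9 were far below GI and TOC1 in both groups.

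Of the members, 9 were called in the main test and under all 13 alternatives, all of them lower: CCA1, RVE2, RVE7, LNK2, LNK3, LNK4, PRR9, CHE and CDF1. The spread among replicates of the members was like that of other genes. Their median coefficient of variation was 8.16% in Dex and 6.77% in no_Dex, against 8.20% in Dex and 6.08% in no_Dex for all tested genes.

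A further list of 40 clock and photoperiod genes holds other clock regulators, photoreceptors, light signalling genes and flowering genes. Of the 37 that were tested 2 rose, 4 fell and 31 did not pass by edgeR, a share near the 14.4% called over all tested genes (5.99% higher and 8.40% lower). RVE3, CDF6 and TSF were too low to test. The median log2 fold change of the list was -0.03. COR27 (AT5G42900), a cold- and clock-regulated repressor of PRR5 and TOC1, had 19.9, 17.7 and 12.2 CPM in Dex and 7.63, 9.90 and 7.72 CPM in no_Dex. It rose by 0.98 (SE 0.19; edgeR adjusted p = 0.0115), a call lost without no_Dex replicate 1 or 3 (0.0553 and 0.0564). FBH4 (AT2G42280), a bHLH activator of CO, rose by 0.28 (SE 0.07; edgeR adjusted p = 0.0319), a call lost without Dex replicate 3 or no_Dex replicates 1, 2 or 3 (0.0738, 0.0672, 0.126 and 0.100).

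Of the light signalling genes in that list, PHYA (AT1G09570), the photoreceptor of far-red light, had 195, 179 and 181 CPM in Dex and 240, 248 and 253 CPM in no_Dex. It fell by 0.42 (SE 0.06; edgeR adjusted p = 0.00351), a call that held under all 13 alternatives. HY5 (AT5G11260), a bZIP factor that promotes light responses, fell by 0.28, SPA1 (AT2G46340), a partner of the COP1 ubiquitin ligase, by 0.23, and PIF4 (AT2G43010), a bHLH factor of elongation growth, by 0.23 (edgeR adjusted p = 0.0256, 0.0301 and 0.0331). The 3 calls were less firm. Without Dex replicate 2 or no_Dex replicates 1, 2 or 3 they were lost for HY5 (edgeR adjusted p = 0.0535, 0.0747, 0.0799 and 0.0908), for SPA1 (0.107, 0.101, 0.104 and 0.0707) and for PIF4 (0.0891, 0.0959, 0.0747 and 0.0720). Those of HY5 and PIF4 were also lost without Dex replicate 3 (0.0797 and 0.0970). The other photoreceptors PHYB, CRY1 and CRY2 did not pass the test, with log2 fold changes of -0.05, -0.11 and -0.01. The count of risen genes in the list was 4 with the replicate block or without Dex replicate 3, 1 without no_Dex replicate 2 and 0 without no_Dex replicate 1 or 3. The count of fallen genes was 1 without Dex replicate 2 or any 1 no_Dex replicate, and 2 without Dex replicate 3.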

How the data were processed

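Reads were aligned to TAIR10 with Bowtie2 (no version stated) by the authors, per the submitters' processing notes. The deposited counts are, per the file headers, properly paired read pairs per gene model after removal of equally scoring multiple hits, beside counts of single reads; a deposited column of the unit other holds the model length in bases. Libraries were polyA-selected and unstranded, per the labels' protocols, so transcripts that overlap on opposite strands cannot be told apart; 13 members share part of their span with another gene.

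CPM, FPKM and all tests were computed here. Gene filtering (filterByExpr, minimum count 10, minimum total 15), TMM scaling and the quasi-likelihood test (two-sided, Dex against no_Dex) used edgeR 4.0.16 in R 4.3.3. Calls required an adjusted p under 0.05 (Benjamini-Hochberg over 21344 genes). SE was taken as the size of the log2 fold change over the root of F. The script was tested on simulated data. Alternatives were DESeq2 1.42.0 scaling and its Wald test, limma-voom (limma 3.58.1), 2 other filters, single reads, the replicate block and leaving out each library.

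The groups share replicate numbers. Deviations from group means correlated at 0.171, 0.119 and 0.125 between same-numbered libraries and at most at 0.0177 between others. These values are low and the labels do not say what the numbers mark, so whether they pair the libraries is not settled. The main test left the numbers out, and the block is given where it changes a call. The design text calls the samples biological replicates without naming their source. The p-values weigh the group difference against the spread between these replicates, which edgeR estimates with information shared across genes. For 1 gene an exact permutation test could reach 0.1 at best. Members, lists and phase groups were chosen with earlier results of these data known. All 35 members are accounted for, with values per library for called members and core genes, and called genes of the further list are named. Positions and sequences are RefSeq's TAIR10.1, since the files carry no coordinates, and all 75 genes of both lists matched a locus tag there.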

Additional observations from a re-analysis of the deposited data

How the results depend on the processing

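The direction and call of 9 members held under all 13 alternatives, 4 called members lost their call under at least 1, 6 members gained one under at least 1, and 16 were not called under any. With 1 library left out, genes called higher numbered 519 to 2339 and lower 785 to 2726 over all tested genes. Members called higher numbered 0 to 5 and lower 9 to 13, evening-phased members 0 to 4 higher and 1 to 2 lower, morning-phased members 8 to 10 lower, and further genes 0 to 4 higher and 1 to 4 lower. With the replicate block 4 members were higher, 12 lower, and 4 further genes were higher; the block changed the calls of PRR7, PRR3 and CDF3 and of no other member. With 1 library left out, signs turned for 3 members that were not called: ELF3 ranged from -0.080 to 0.010 (positive without Dex replicate 3 at 0.0059 and without no_Dex replicate 1), EFL1 from -0.00052 (without Dex replicate 1) to 0.23, and GI from -0.026 to 0.052 (negative without Dex replicate 3 at -0.0033 and without no_Dex replicate 3); the cause was not tested. The morning-phased median lay between -0.53 and -0.44 over the alternatives and the evening-phased median between 0.05 and 0.10. CO, FT, LHY and EFL1 rested on under 100 pairs per library, which limits what could be detected for them. Called genes could also rest on few pairs. CCA1 had 69, 69 and 77 pairs in Dex and 140, 117 and 133 in no_Dex. PRR9 had 73, 49 and 60 pairs in Dex and 180, 166 and 163 in no_Dex.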
